A study of Mus musculus with 39 samples.

Results

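Glucocorticoid-responsive genes are genes whose transcription follows the stress hormone corticosterone in mice. The 10 genes described here, Fkbp5, Tsc22d3, Sgk1, Errfi1, Pdk4, Zbtb16, Cdkn1a, Klf9, Mt1 and Mt2, were taken by symbol from the 47561 genes of a brain RNA table, and each matched 1 gene of the table. All 10 passed the filter on low values and were among the 14701 genes tested. Levels are in FPKM, a count of fragments per unit of transcript length and of library size.

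The soman brains came from mice injected under the skin with soman, a nerve agent that blocks acetylcholinesterase. The doses were 1/10, 1/5 and 1/2 LD50 (the LD50 kills 50% of animals), and each dose was followed to day 1, 3, 7 and 14. Each of these 12 soman groups, and 1 saline group, had 3 libraries, which the design text calls biological replicates, so there were 39 libraries in 13 groups. The mouse strain, sex and age, the number of injections, the animals behind a library, the time of day and the day on which the saline brains were taken are not given in the sources used here. With a single saline group, soman and the day of collection cannot be told apart in a difference from saline, and any batch shared by a day cannot be told apart from that day. The 12 comparisons with saline share the same 3 saline libraries.

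Corticosterone enters cells and binds the glucocorticoid receptor, encoded by Nr3c1, which Hsp90 and its co-chaperones hold ready in the cytoplasm. The bound receptor moves to the nucleus and attaches to glucocorticoid response elements, paired half-sites in inverted order, from which it raises transcription of nearby genes. In brain the hormone follows a daily rhythm and climbs with stress, and several of these genes serve as readouts of it. Several answer to other signals too: Cdkn1a is also a target of p53, the metallothionein genes Mt1 and Mt2 are driven by zinc through metal response elements, and Pdk4 follows fasting.

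The elements themselves could be read in RefSeq promoter windows of build GRCm38.p6, each from 250 bases before to 50 bases after an annotated start. Windows were given for 9 of the 10 genes (18 windows), and Zbtb16 had none. The full glucocorticoid response element (AGAACA, any 3 bases, then TGTTCT) was searched on both strands, and it lay in 3 of all 32851 windows (0.00913%). Among the 18 windows it lay in 1, that of 1 of 6 annotated Sgk1 starts, where its first base was at position -189 from the start. The 250 bases before that Sgk1 start, chr10:21993640-21993889 on the + strand, are shown with the element in capitals.
Sgk1: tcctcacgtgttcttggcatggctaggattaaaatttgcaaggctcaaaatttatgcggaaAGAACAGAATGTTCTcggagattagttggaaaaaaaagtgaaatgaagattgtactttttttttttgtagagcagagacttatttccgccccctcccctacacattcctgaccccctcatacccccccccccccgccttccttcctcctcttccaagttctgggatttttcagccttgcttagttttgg
The half-site TGTTCT, which the full element holds on each strand, lay in 4 of the 18 windows (3 of Sgk1 and 1 of Tsc22d3) and in 19% of all windows.

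Metal response element cores, TGCACNC or TGCGCNC on either strand, lay in 25.7% of all windows, and 3 or more of them in 1.97%. Of the 18 windows, 3 held a core. The Mt2 window held 4, at positions -223, -128, -50 and 5, and the Mt1 window held 3, at positions -23, 3 and 21. The third, of another Sgk1 start than the one shown above, held 1 at position 12. Mt2 and Mt1 are neighbours, with window starts 6471 bases apart. The 250 bases before each start, chr8:94172368-94172617 for Mt2 and chr8:94178839-94179088 for Mt1, both on the + strand, are shown with the cores before the start in capitals.
Mt2: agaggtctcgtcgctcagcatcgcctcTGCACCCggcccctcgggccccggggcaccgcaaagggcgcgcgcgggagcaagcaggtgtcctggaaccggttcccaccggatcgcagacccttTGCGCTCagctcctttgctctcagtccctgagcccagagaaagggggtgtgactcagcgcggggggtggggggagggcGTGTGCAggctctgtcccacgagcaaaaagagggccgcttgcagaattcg
Mt1: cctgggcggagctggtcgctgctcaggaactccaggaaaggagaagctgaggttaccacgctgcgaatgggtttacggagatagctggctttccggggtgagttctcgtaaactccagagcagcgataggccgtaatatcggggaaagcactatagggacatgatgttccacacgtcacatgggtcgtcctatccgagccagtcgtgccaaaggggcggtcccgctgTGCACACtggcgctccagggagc
These matches describe the letters of the windows and show no binding, and no coordinates were taken from the expression table.

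Library sums ran to 296322 FPKM at the lowest and 342231 FPKM at the highest, and the depth in reads is unknown. A set of 7 libraries took a middle place between their 2 group mates: for genes over 2-fold apart in the mates, this held for 47.6% to 76.5% of 39 to 518 genes, more than for any of 36 libraries of other groups put there instead. The set held replicate 3 of saline and of every day-1 group, replicate 2 of the 1/10 LD50 group of day 7, and replicate 3 of the 1/10 and 1/5 LD50 groups of day 14. A mitochondrial share of 21.7% and 25.9% set apart replicates 2 and 3 of the 1/10 LD50 group of day 7 (median of the 39 libraries 9.6%). Calls lost without these libraries are named beside the results.

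In saline brains the 10 genes spanned 2.15 to 125 FPKM on average (n = 3). Mt1 averaged 125 ± 3.22 FPKM (SD) and Mt2 61.0 ± 1.68 FPKM, followed by Klf9 at 28.9 ± 0.772, Tsc22d3 at 21.7 ± 1.06 and Sgk1 at 18.3 ± 0.675 FPKM. Errfi1 (7.91 ± 0.177 FPKM), Cdkn1a (7.24 ± 0.228), Fkbp5 (5.64 ± 0.284), Zbtb16 (2.95 ± 0.176) and Pdk4 (2.15 ± 0.423) were lower. No neighbours in this order overlapped among the 3 saline libraries. Over the 13 group means, Cdkn1a varied most, 2.31-fold between the highest and lowest group, then Zbtb16 at 2.20-fold, and Klf9 varied least, at 1.19-fold. Saline was the lowest of the 13 groups for Mt1 and for Mt2.

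**Figure D1:**
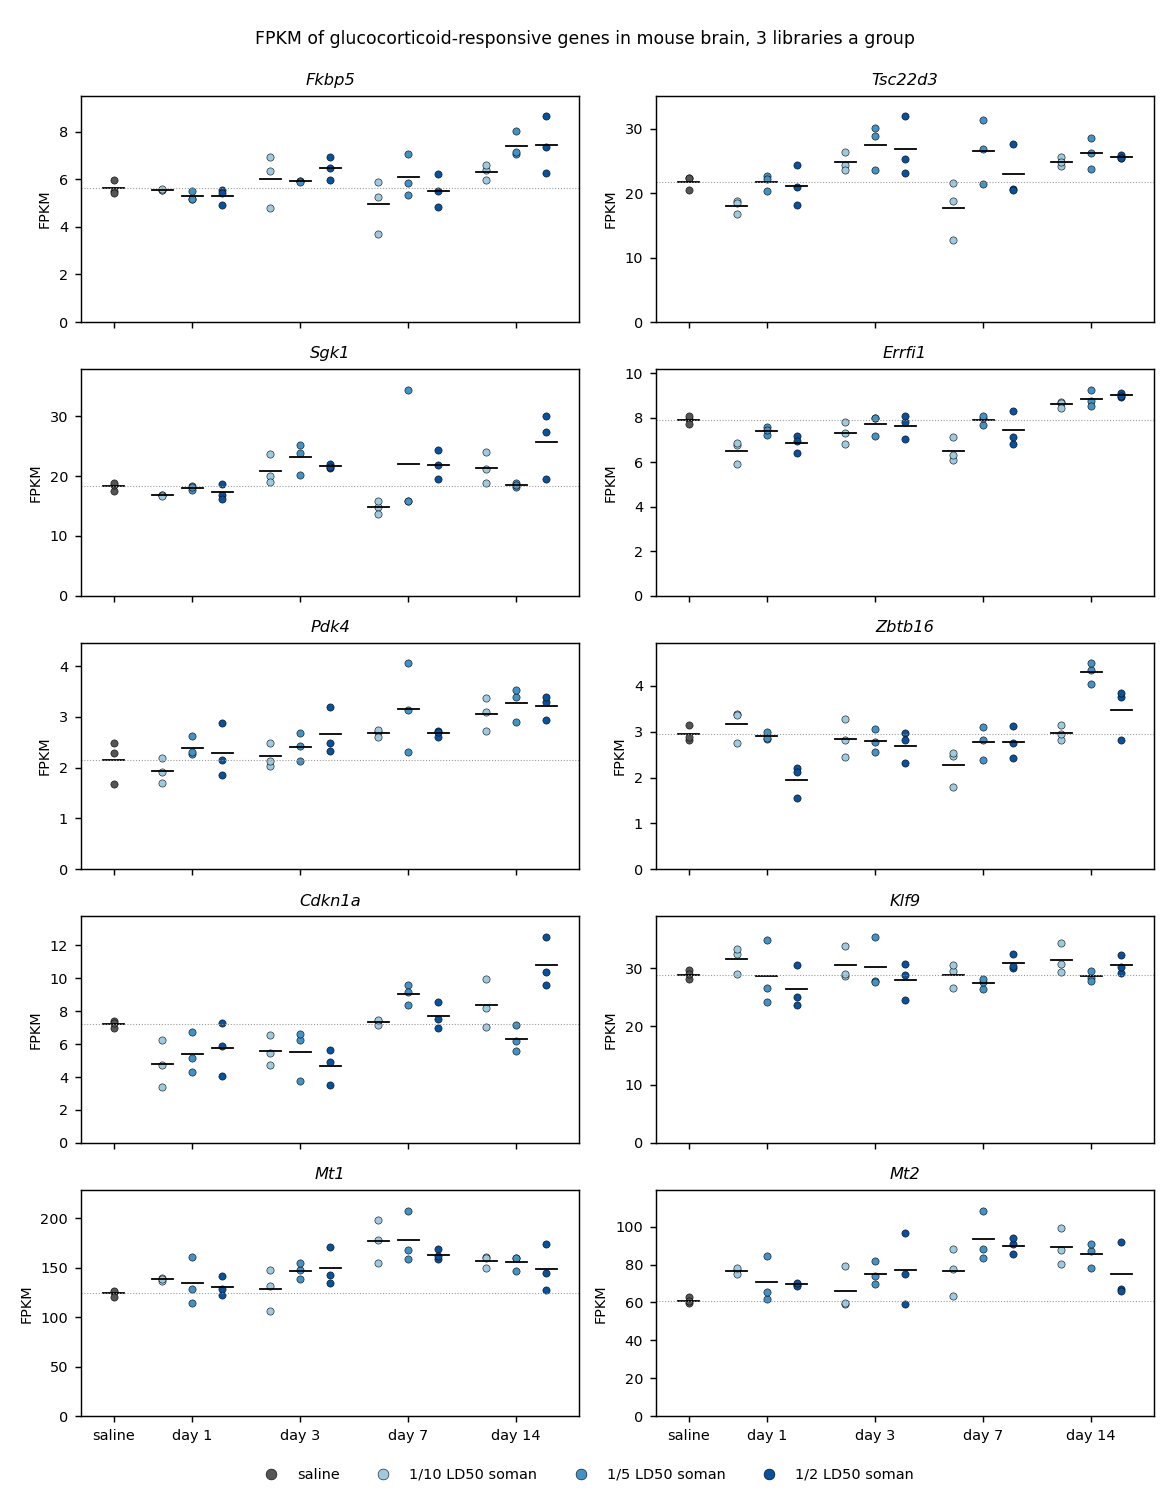
FPKM of the 10 genes in each of 39 libraries (points), with the mean of each group (bars) and the saline mean (dotted line), by day and by soman dose. Day-14 points of Fkbp5 and Errfi1 all lie above those of day 1 and saline, and Klf9 shows no such step.

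Against saline, few of the 10 genes passed the adjusted threshold, and those that did were mostly the metallothioneins at day 7. Mt1 was higher at all 3 doses and Mt2 at the 2 higher doses. A gene was called where the adjusted p was under 0.05 (limma on log2(FPKM + 1), Benjamini-Hochberg over all tested genes). Fold changes on this scale understate those of low genes such as Pdk4 and Zbtb16. P-values measure the spread between these libraries, and in bulk tissue fewer cells of a type and less RNA per cell cannot be told apart.

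At day 1 none of the 10 was called in the 3 dose groups, taken from the lowest dose up (unadjusted p under 0.05 in 3, 1 and 2 of them), against 0.347%, 0.0136% and 0.116% of all genes tested. At day 3 none was called at the 3 doses (0, 1 and 3 unadjusted), against 6.97%, 8.6% and 8.44% of all genes. At day 7, 2, 3 and 2 of the 10 were called, against 19.5%, 15.4% and 8.39% of all genes. The count was near that share at 1/10 LD50 and above it, on only 3 and 2 genes, at 1/5 and 1/2 LD50. By direction, 1 of the 10 was higher and 1 lower at 1/10 LD50 (4.23% and 15.3% of all genes), 3 were higher at 1/5 LD50 (6.49%) and 2 were higher at 1/2 LD50 (1.71%). At day 14 none was called (3, 6 and 5 unadjusted), against 0.435%, 0.163% and 0.415% of all genes. Over all 12 soman groups against saline none was called (3 unadjusted, 2.57% of all genes).

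Mt1 and Mt2 encode small cysteine-rich proteins that bind zinc and copper. At 1/5 LD50 at day 7, Mt1 had 168, 159 and 208 FPKM, against 126, 127 and 121 FPKM in saline. Mt2 had 88.3, 83.4 and 108 FPKM in those brains, against 59.6, 62.8 and 60.5 FPKM in saline. Neither gene overlapped between the groups, and the log2 difference was 0.50 ± 0.12 for Mt1 (SE, limma adjusted p = 0.00492) and 0.60 ± 0.15 for Mt2 (limma adjusted p = 0.00549). At 1/2 LD50 at day 7, Mt1 had 159, 169 and 162 FPKM (log2 difference from saline 0.39 ± 0.12, limma adjusted p = 0.0430). Mt2 had 85.3, 90.6 and 93.7 FPKM there (0.55 ± 0.15, limma adjusted p = 0.0169). At 1/10 LD50 at day 7, Mt1 had 155, 178 and 198 FPKM (0.49 ± 0.12, limma adjusted p = 0.00605), again above all saline libraries. Mt2 had 77.5, 88.2 and 63.5 FPKM there and was not called (0.31 ± 0.15, limma adjusted p = 0.131).

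These calls depended on single libraries and on how the values were scaled. Without replicate 3 of 1/5 LD50 at day 7, the adjusted p (limma) was 0.0608 for Mt1 and 0.0567 for Mt2 at that dose. Without the 7 libraries that lie between others, the adjusted p at 1/5 LD50 was 0.0673 for Mt1 and 0.0510 for Mt2, that of Mt1 at 1/10 LD50 was 0.133, and those at 1/2 LD50 were 0.247 for Mt1 and 0.122 for Mt2. Without the 2 libraries of high mitochondrial share, that of Mt1 at 1/10 LD50 was 0.499. At 1/2 LD50 the call of Mt1 was lost in each of 6 fits that leave out 1 library, and that of Mt2 in 3 of 6. Their longest annotated transcripts are the shortest of the 10, at 511 bases for Mt2 and 1085 for Mt1. After a trend of each library on length was taken out, the adjusted p at 1/5 LD50 was 0.197 for Mt1 and 0.164 for Mt2.

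The other calls at day 7 were 1 rise and 1 fall. Pdk4 encodes the kinase that switches off pyruvate dehydrogenase and so spares glucose. It had 2.30, 3.13 and 4.05 FPKM at 1/5 LD50, against 2.48, 1.67 and 2.29 FPKM in saline, so the groups overlapped (log2 difference 0.39 ± 0.12, limma adjusted p = 0.0283, or 0.245 without replicate 3 of the soman group and 0.109 without the 7 libraries). Errfi1, a feedback inhibitor of the EGF receptor, had 7.12, 6.11 and 6.31 FPKM at 1/10 LD50, against 7.93, 8.07 and 7.72 FPKM in saline. It was below saline in 3 of 3 libraries, a log2 difference of -0.25 ± 0.06 (limma adjusted p = 0.00973, or 0.603 without the 2 libraries of high mitochondrial share, which are 2 of these 3, and 0.144 without the 7).

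**Figure D2:**
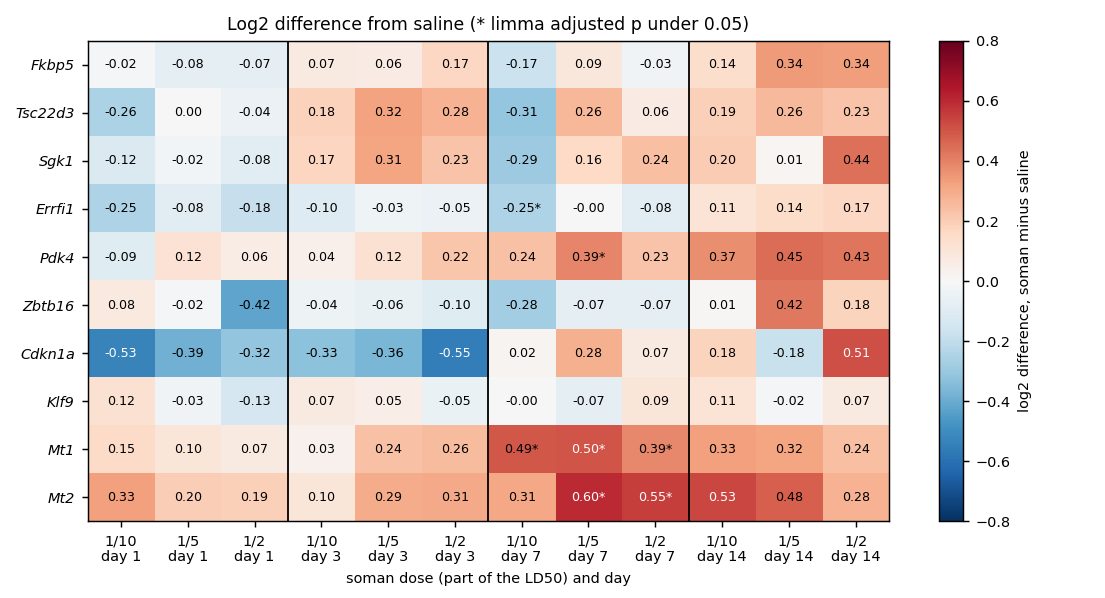
Log2 difference of each soman group from saline for the 10 genes, on the log2(FPKM + 1) scale (colour and number), with an asterisk where the limma adjusted p was under 0.05. The 7 asterisks are all at day 7, and 5 of them belong to Mt1 and Mt2.

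At day 14 more of these genes than at day 1 had every library of a dose above saline, although none was called there. At 1/2 LD50 at day 14, 8 of the 10 had all 3 libraries above all 3 of saline and none had all below, against 7.24% and 11.3% of all tested genes. At 1/5 LD50 these were 7 and 0 of 10, against 14.2% and 9.43% of all genes, and at 1/10 LD50 6 and 0 of 10, against 6.35% and 15.9%. Fkbp5, Tsc22d3, Errfi1, Pdk4, Mt1 and Mt2 were among them at every dose. At day 1 the same count was 2, 0 and 1 above and 4, 2 and 2 below at the 3 doses, against 9.09%, 4.27% and 7.93% above and 13.4%, 9.98% and 9.6% below. At day 3 it was 2, 4 and 4 above (13%, 16.3% and 20.3% of all genes) and 1, 1 and 1 below (15.8%, 14.9% and 14%), and the gene below was Cdkn1a each time. At day 7 it was 3, 3 and 5 above (7.71%, 21.7% and 13.5%) and 3, 0 and 0 below (18.2%, 18.8% and 18.7%). Errfi1 was below saline in 9 of 9 libraries at day 1 and Cdkn1a in 8 of 9. Without the 7 libraries between others, which leaves 2 saline libraries, 8, 7 and 8 of the 10 lay above at day 14 from the lowest dose up, against 15.1%, 25.2% and 12.3% of all genes.

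Comparisons among the soman brains leave the saline libraries out. At day 14, 7 of the 10 genes rose relative to day 1 and none fell, against 14.9% of all genes called in that comparison (7.27% higher and 7.67% lower). The 7 were Fkbp5, Tsc22d3, Sgk1, Errfi1, Pdk4, Zbtb16 and Cdkn1a, and Klf9, Mt1 and Mt2 were not called. The median log2 difference of the 10 was 0.32, against 0.006 for all genes tested. Day 3 relative to day 1 had 3 rises (Tsc22d3, Sgk1 and Errfi1) and no fall, against 23.5% of all genes called (12.9% higher). Day 7 relative to day 1 had 4 rises (Pdk4, Cdkn1a, Mt1 and Mt2) and no fall, against 25% of all genes called (10.2% higher). These 3 comparisons share their day-1 libraries. An F-test among the 4 days called 9 of the 10, all but Klf9 (limma adjusted p = 0.734), against 49.5% of all genes. Without the 7 libraries it called 7, against 30% of all genes, and Sgk1 (0.129) and Mt2 (0.117) were lost. Without the 7 libraries that lie between others, 5 genes were called at day 14 against day 1, against 4.66% of all genes, and 1 and 2 at day 3 and day 7 against day 1, against 11.9% and 13.1%.

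**Figure D3:**
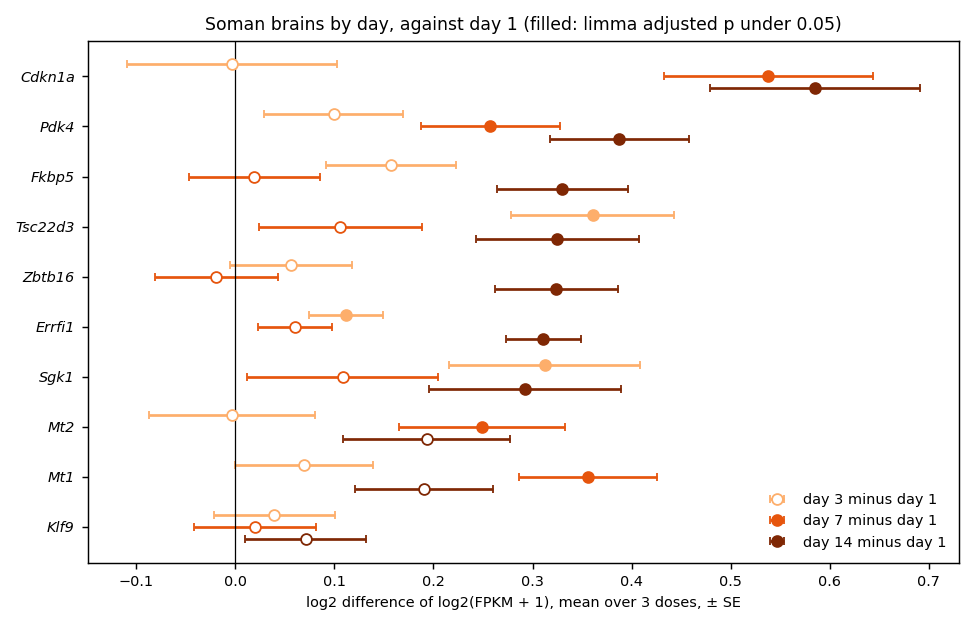
Difference of day 3, day 7 and day 14 from day 1, as log2(FPKM + 1), mean over 3 doses with its SE (n = 9 libraries a day); filled points have a limma adjusted p under 0.05. At day 14, 7 of the 10 genes are filled, with Cdkn1a highest at 0.59 and Klf9 lowest at 0.07.

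Fkbp5 and Tsc22d3 act on the glucocorticoid and inflammatory pathways themselves. Fkbp5 encodes an Hsp90 co-chaperone that lowers the receptor's affinity for hormone, and Tsc22d3 encodes GILZ, a leucine zipper protein that restrains inflammatory transcription. Over the 9 libraries of day 14, Fkbp5 ranged between 5.99 and 8.66 FPKM (median 7.07), against 4.91 to 5.58 FPKM at day 1 (median 5.51) and 5.43 to 5.96 FPKM in saline (median 5.51). All 9 day-14 libraries lay above every day-1 and every saline library, and the log2 difference from day 1 was 0.33 ± 0.07 (limma adjusted p = 0.000882, or 0.0366 without the 7 libraries). At day 7 Fkbp5 ranged between 3.71 and 7.07 FPKM, which overlaps day 1 on both sides (log2 difference 0.02 ± 0.07, limma adjusted p = 0.868). Day 14 was also above day 7 by 0.31 ± 0.07 (limma adjusted p = 0.000675).

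Tsc22d3 was called higher than at day 1 on 2 days, day 3 and day 14. It ranged between 23.7 and 28.6 FPKM at day 14 (median 25.5) and between 23.1 and 32.0 FPKM at day 3 (median 25.3), against 16.8 to 24.5 FPKM at day 1 (median 20.4) and 20.5 to 22.4 FPKM in saline (median 22.3). Every library of day 3 and of day 14 was above all saline libraries, and at day 7 only 3 of 9 were (12.7 to 31.3 FPKM). The day-7 means were 17.7, 26.6 and 23.0 FPKM from the lowest dose up. Day 7 was not called against day 3 (log2 difference -0.25 ± 0.08, limma adjusted p = 0.0582). The call of day 14 against day 7 (0.22 ± 0.08, limma adjusted p = 0.0449) was lost without the 2 libraries of high mitochondrial share (0.296). The log2 difference from day 1 was 0.36 ± 0.08 at day 3 (limma adjusted p = 0.00208, or 0.0216 without the 7 libraries) and 0.33 ± 0.08 at day 14 (limma adjusted p = 0.00732, or 0.0614 without them).

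Sgk1 and Errfi1 act in signalling. Sgk1 encodes a kinase that raises the activity of ion channels and transporters, and Errfi1 the feedback inhibitor named above. Sgk1 ranged between 19.1 and 25.2 FPKM at day 3 (median 21.5), against 16.2 to 18.7 FPKM at day 1 (median 16.9) and 17.6 to 18.9 FPKM in saline (median 18.6), so that all 9 day-3 libraries lay above both sets. The log2 difference between day 3 and day 1 was 0.31 ± 0.10 (limma adjusted p = 0.0195, or 0.113 without the 7 libraries and 0.0759 after correction for length). At day 14 it ranged between 18.2 and 30.1 FPKM (median 19.5; log2 difference from day 1 0.29 ± 0.10, limma adjusted p = 0.0388). That call was lost in 15 of 18 fits that leave out 1 library of either day (adjusted p up to 0.0929) and without the 7 libraries (0.242).

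At day 7 the Sgk1 values split by dose. The 3 libraries of 1/2 LD50 had 21.9, 19.5 and 24.4 FPKM and the 3 of 1/10 LD50 had 14.9, 15.8 and 13.7 FPKM, against 17.6, 18.6 and 18.9 FPKM in saline. At 1/5 LD50, 2 libraries had 15.8 and 15.9 FPKM and the third had 34.4 FPKM, the highest of all 39. That library, replicate 3, was also the highest of all 39 for Pdk4 (4.05 FPKM), Mt1 (208 FPKM) and Mt2 (108 FPKM). In turn replicate 3 of 1/10 LD50 at day 7, the library with 25.9% mitochondrial FPKM, was the lowest of all 39 for Sgk1 (13.7 FPKM), Fkbp5 (3.71 FPKM) and Tsc22d3 (12.7 FPKM). The part of mitochondrial RNA in those values was not tested.

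Errfi1 gave the smallest p of the 10 genes. It ranged between 8.44 and 9.25 FPKM at day 14 (median 8.75), against 5.93 to 7.58 FPKM at day 1 (median 6.96) and 7.72 to 8.07 FPKM in saline (median 7.93). The 3 ranges did not overlap: all 9 day-14 libraries lay above saline and all 9 day-1 libraries below it. The log2 difference of day 14 from day 1 was 0.31 ± 0.04 (limma adjusted p = 1.09e-06, or 0.000442 without the 7 libraries). The difference from day 7 was 0.25 ± 0.04 (limma adjusted p = 1.17e-05) and that from day 3 was 0.20 ± 0.04 (limma adjusted p = 0.000154). Its rise at day 3 relative to day 1 was smaller, 0.11 ± 0.04 (limma adjusted p = 0.0305), and was lost without the 7 libraries (0.105) and in 8 of 18 fits that leave out 1 library. One of its windows, at chr4:150854820-150855119 on the + strand, held the cyclic AMP response element TGACGTCA at position -51, which 1.79% of all windows hold.

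By its median, Pdk4 was highest at day 14. Day 14 was not called against day 7 for this gene (log2 difference 0.13 ± 0.07, limma adjusted p = 0.169). Its median was 2.29 FPKM in saline (1.67 to 2.48), 2.19 at day 1 (1.71 to 2.88), 2.43 at day 3 (2.04 to 3.19), 2.70 at day 7 (2.30 to 4.05) and 3.30 FPKM at day 14 (2.73 to 3.53). All 9 day-14 libraries lay above saline and 8 of 9 above all of day 1. The log2 difference from day 1 was 0.26 ± 0.07 at day 7 (limma adjusted p = 0.00714, or 0.0919 without the 7 libraries) and 0.39 ± 0.07 at day 14 (limma adjusted p = 0.0003, or 0.0319 without them). At day 3 it was 0.10 ± 0.07 (limma adjusted p = 0.318).

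Zbtb16 and Klf9 encode zinc finger transcription factors. Zbtb16, also called PLZF, ranged between 2.82 and 4.49 FPKM at day 14 (median 3.76), against 1.54 to 3.39 FPKM at day 1 (median 2.84) and 2.82 to 3.15 FPKM in saline (median 2.88), and 5 of 9 day-14 libraries lay above all of day 1 (log2 difference 0.32 ± 0.06, limma adjusted p = 0.000521, or 0.00792 without the 7 libraries). Klf9 ranged between 27.9 and 34.3 FPKM at day 14 (median 29.6), against 23.7 to 34.9 FPKM at day 1 (median 29.0) and 28.1 to 29.7 FPKM in saline (median 29.0). It overlapped between all 4 days, with a log2 difference of 0.07 ± 0.06 between day 14 and day 1 (limma adjusted p = 0.480).

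Cdkn1a encodes p21, an inhibitor of cyclin-dependent kinases, and it had the widest spread. It ranged between 6.96 and 9.58 FPKM at day 7 (median 7.53) and between 5.59 and 12.5 FPKM at day 14 (median 8.22), against 3.42 to 7.26 FPKM at day 1 (median 5.13) and 6.99 to 7.43 FPKM in saline (median 7.29). At day 3 all 9 libraries (3.51 to 6.60 FPKM) lay below saline. The log2 difference from day 1 was 0.54 ± 0.11 at day 7 (limma adjusted p = 0.000364) and 0.59 ± 0.11 at day 14 (limma adjusted p = 0.000283), or 0.0117 and 0.0181 without the 7 libraries. At day 14 it had 7.05, 9.94 and 8.22 FPKM at 1/10 LD50, 5.59, 7.15 and 6.21 FPKM at 1/5 LD50, and 10.4, 9.60 and 12.5 FPKM at 1/2 LD50. The lowest and the highest dose overlapped, and the middle dose was below 1/2 LD50 in all libraries.

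By their means over doses, Mt1 and Mt2 were highest at day 7, but day 14 was not called against day 7 for either. That log2 difference was -0.17 ± 0.07 for Mt1 (limma adjusted p = 0.0729) and -0.06 ± 0.08 for Mt2 (limma adjusted p = 0.661). At 1/10 LD50 the mean of Mt2 was 89.1 FPKM at day 14 and 76.4 FPKM at day 7. Mt1 ranged between 155 and 208 FPKM at day 7 (median 168), against 114 to 161 FPKM at day 1 (median 136) and 121 to 127 FPKM in saline (median 126). Mt2 ranged between 63.5 and 108 FPKM at day 7 (median 88.2), against 62.0 to 84.4 FPKM at day 1 (median 70.5) and 59.6 to 62.8 FPKM in saline (median 60.5). All 9 day-7 libraries lay above saline for both genes, and 6 of 9 above all of day 1. The log2 difference of day 7 from day 1 was 0.36 ± 0.07 for Mt1 (limma adjusted p = 0.000349, or 0.0155 without the 7 libraries) and 0.25 ± 0.08 for Mt2 (limma adjusted p = 0.0288, or 0.216 without them and 0.220 after correction for length). At day 14 both were above saline in 9 of 9 libraries, at 128 to 174 FPKM for Mt1 and 65.8 to 99.2 FPKM for Mt2, and their differences from day 1 were 0.19 ± 0.07 (limma adjusted p = 0.0630) and 0.19 ± 0.08 (limma adjusted p = 0.125).

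The 2 neighbouring genes kept a similar proportion in most libraries. The ratio of Mt1 to Mt2 FPKM was 1.62 to 2.20 at day 14 (median 1.87) and 1.76 to 2.06 at day 1 (median 1.84), against 2.00 to 2.12 in saline (median 2.02). One library stood outside: the ratio was 3.12 in replicate 3 of 1/10 LD50 at day 7, with 198 FPKM of Mt1 and 63.5 FPKM of Mt2, and this is the library with 25.9% mitochondrial FPKM.

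**Figure D4:**
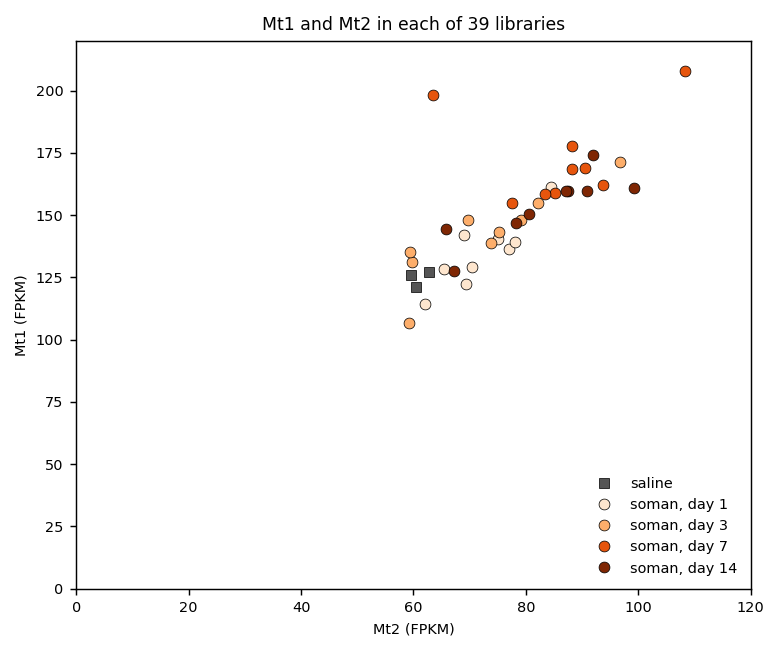
Mt1 (vertical axis) against Mt2 (horizontal axis), both in FPKM, in each of 39 libraries, by day. Saline squares sit at the low end, day-7 points at the high end, and a single day-7 point at 63.5 FPKM of Mt2 and 198 FPKM of Mt1 stands away from the rest.

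Fewer of the 10 genes differed by dose than by day. Between 1/2 and 1/10 LD50 over the 4 days, none of the 10 genes was called (limma; 3 of 10 at an unadjusted p under 0.05), against 0.0408% of all genes. The 3 were Sgk1, with a log2 difference of 0.22 ± 0.08 (limma adjusted p = 0.157), Tsc22d3 at 0.18 ± 0.07 (0.160) and Errfi1 at 0.09 ± 0.03 (0.151). Mt1 and Mt2 differed by -0.01 ± 0.06 and 0.01 ± 0.07 (limma adjusted p = 0.922 and 0.938).

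Zbtb16 was the 1 gene of the 10 whose dose differences themselves differed between days (interaction F-test, limma adjusted p = 0.0423, against 1.59% of all genes). At day 14 it had 2.82, 2.96 and 3.14 FPKM at 1/10 LD50, 4.35, 4.49 and 4.05 FPKM at 1/5 LD50, and 3.76, 3.85 and 2.83 FPKM at 1/2 LD50. At day 1 it had 3.39, 2.76 and 3.37 FPKM at 1/10 LD50, 2.99, 2.84 and 2.87 FPKM at 1/5 LD50, and 1.54, 2.21 and 2.12 FPKM at 1/2 LD50. So 1/2 LD50 was the lowest dose group at day 1, with no overlap with the other doses, and 1/5 LD50 was the highest at day 14, again with no overlap. The log2 difference of day 14 from day 1 was -0.07 ± 0.11 at 1/10 LD50 (limma adjusted p = 0.814), 0.44 ± 0.11 at 1/5 LD50 (0.0316) and 0.60 ± 0.11 at 1/2 LD50 (0.000883). The interaction was not called without the 2 libraries of high mitochondrial share (adjusted p = 0.108) or the 7 that lie between others (0.523), nor in 22 of 36 fits that leave out 1 library.

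The same comparison of day 14 with day 1 within a dose was added after the values were seen. At 1/10 LD50, 3 genes were called (Errfi1, Pdk4 and Cdkn1a), against 2.83% of all genes (1.19% higher), and Pdk4 (adjusted p = 0.337) and Cdkn1a (0.319) were lost without the 7 libraries. At 1/5 LD50, 2 were called (Fkbp5 and Zbtb16), against 1.93% of all genes (1.53% higher), and both calls were lost in each of 6 fits that leave out 1 library and without the 7 (0.521 and 0.328). At 1/2 LD50, 4 were called (Fkbp5, Errfi1, Zbtb16 and Cdkn1a), against 4.05% of all genes (1.48% higher), and without the 7 libraries only Zbtb16 stayed called (Fkbp5 0.170, Errfi1 0.0501). Cdkn1a had the widest of these differences, at 1/2 LD50: 0.71 ± 0.18 at 1/10 LD50 (limma adjusted p = 0.0287), 0.21 ± 0.18 at 1/5 LD50 (0.611) and 0.83 ± 0.18 at 1/2 LD50 (0.00710, or 0.0804 without the 7 libraries). Neighbouring days were compared in the same way: Cdkn1a and Mt1 rose at day 7 relative to day 3, against 6.06% of all genes called (2.1% higher), and Mt1 was lost without the 2 libraries of high mitochondrial share (0.149) and without the 7 (0.0744). Fkbp5, Tsc22d3, Errfi1 and Zbtb16 rose at day 14 relative to day 7, against 28.6% (17.1% higher). That call of Tsc22d3 (limma adjusted p = 0.0449) was lost in 13 of 18 fits that leave out 1 library, without the 2 libraries (0.296) and without the 7 (0.0825). Relative to day 3, Fkbp5, Errfi1, Pdk4, Zbtb16 and Cdkn1a rose at day 14, against 32.5% (14.6% higher), and the call of Fkbp5 (0.0435) was lost in 11 of 18 such fits and without the 7 (0.184).

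The receptor's own gene was lower in the middle days. Nr3c1 ranged between 11.9 and 14.2 FPKM at day 3 and between 11.1 and 13.5 FPKM at day 7, against 14.7 to 15.6 FPKM at day 1 and 14.9 to 16.5 FPKM in saline, and was 13.7 to 15.8 FPKM at day 14. Every library of day 3 and day 7 lay below all of day 1 and of saline, with log2 differences from day 1 of -0.21 ± 0.04 at day 3 (limma adjusted p = 0.000244) and -0.29 ± 0.04 at day 7 (limma adjusted p = 2.02e-06), and -0.02 ± 0.04 at day 14 (limma adjusted p = 0.762). Of 16 tested genes of the receptor and its axis, 3 fell and none rose over all soman groups relative to saline, namely Nr3c1 (log2 difference -0.18 ± 0.05, limma adjusted p = 0.0378) and the receptor coactivators Ncoa1 (-0.19 ± 0.05, 0.0254) and Ncoa2 (-0.24 ± 0.04, 0.00537). Of all genes tested, 2.57% were called there in either direction. These 3 falls relative to saline were lost without the 7 libraries (adjusted p = 0.519, 0.403 and 0.185) and after correction for length (0.230, 0.260 and 0.10). Leaving out any 1 saline library ended the calls of Nr3c1 and Ncoa1, and leaving out saline replicate 2 ended that of Ncoa2. Nr3c2, which encodes the mineralocorticoid receptor, and Hsd11b1, whose enzyme regenerates active hormone, were not called in either comparison (day 14 against day 1 adjusted p = 0.333 and 0.981). Relative to day 1, 6 of the 16 rose at day 14 and none fell, at a median log2 difference of 0.11.

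Among 23 tested genes of a second list of glucocorticoid-induced genes, 9 rose and 1 fell at day 14 relative to day 1, at a median of 0.16. Over all genes tested in that comparison, 7.27% rose and 7.67% fell, at a median of 0.006, which is the background of each list count at day 14. Of the 23, none was called over all soman groups relative to saline. Dusp1, a phosphatase that switches off MAP kinases, ranged between 12.6 and 20.1 FPKM at day 14 (median 15.2), against 5.83 to 10.5 FPKM at day 1 (median 8.47) and 12.4 to 14.9 FPKM in saline (median 13.1), without overlap between the 2 days. Its log2 difference was 0.90 ± 0.10 (limma adjusted p = 1.42e-07). Per1, a clock gene that the receptor also induces, ranged between 15.8 and 24.6 FPKM at day 14 (median 21.0), against 10.3 to 16.0 FPKM at day 1 (median 13.2) and 16.8 to 20.6 FPKM in saline (log2 difference 0.61 ± 0.07, limma adjusted p = 1.25e-06). Irs2, an adaptor of the insulin receptor, ranged between 9.70 and 12.3 FPKM at day 14, against 6.98 to 8.57 FPKM at day 1 and 9.28 to 11.1 FPKM in saline (0.43 ± 0.07, limma adjusted p = 3.93e-05). In Dusp1, Per1 and Irs2, all 9 day-1 libraries lay below all of saline, as in Errfi1. The same held for the coactivator Ncoa2, for Mtf1 and for the clock gene Per2. The share of all genes below saline in all 9 was not counted. In single day-1 groups, 13.4%, 9.98% and 9.6% of all genes had all 3 libraries below saline, from the lowest dose up. Dusp1 and Irs2 were also below saline in all 9 libraries of day 3.

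**Figure D5:**
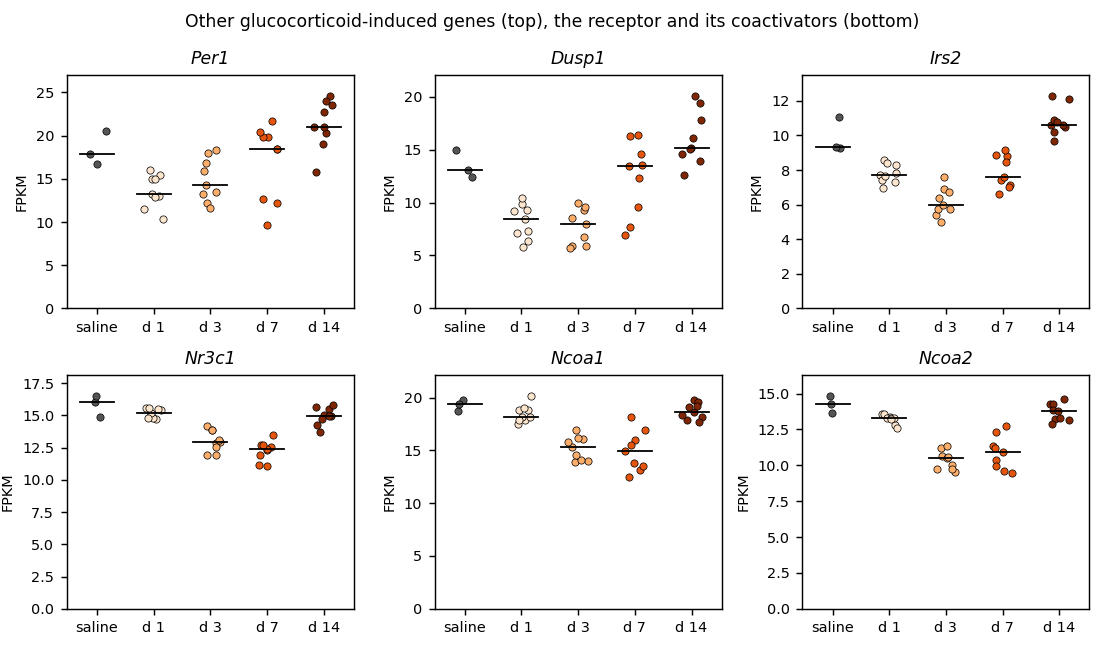
FPKM of Per1, Dusp1 and Irs2 (top) and of Nr3c1, Ncoa1 and Ncoa2 (bottom) in saline and at day 1, 3, 7 and 14 (points are libraries of all doses, lines are medians). The medians of the top 3 are lower at day 1 than at day 14, and those of the bottom 3 are lower at days 3 and 7 than at days 1 and 14.

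The labels give no time of day, and the part of collection time in the differences between days was not tested. The levels of 3 clock genes, picked after the values were seen and given with no test, are set out by day. The median of Per2 was 8.31 FPKM in saline and 5.74, 5.12, 5.69 and 8.31 FPKM at day 1, 3, 7 and 14. That of Dbp was 27.3 FPKM in saline and 33.8, 46.9, 34.7 and 24.9 FPKM at these days, and that of Nr1d1 was 26.7 FPKM in saline and 25.9, 26.9, 33.4 and 28.0 FPKM. Per2 was lowest and Dbp highest at day 3, and Nr1d1 was highest at day 7.

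Further lists held genes of the other inputs named above. At day 7 relative to day 1, 25% of all genes were called (3675 of 14701). Of these 3675 genes, 1495 rose (10.2% of all genes) and the rest fell. Of 10 other metal-response genes tested, 2 rose and 1 fell at day 14 relative to day 1 (median 0.07), and 1 rose and 1 fell at day 7. Mt3, the brain metallothionein, was the riser at day 7, ranging between 190 and 278 FPKM, against 151 to 224 FPKM at day 1 and 179 to 208 FPKM in saline (log2 difference 0.37 ± 0.10, limma adjusted p = 0.00934, or 0.0790 without the 2 libraries of high mitochondrial share and 0.0716 without the 7). Slc39a14, a zinc importer, fell at day 7 (-0.16 ± 0.05, limma adjusted p = 0.0171, or 0.204 without those 2 and 0.106 without the 7). Mtf1, which encodes the factor that binds metal response elements, and Txnrd1, a thioredoxin reductase, were the 2 that rose at day 14 (0.12 ± 0.04, limma adjusted p = 0.0299, or 0.274 without the 7 libraries, and 0.21 ± 0.04, limma adjusted p = 0.000514). Over all soman groups relative to saline, Mtf1 fell (-0.18 ± 0.05, limma adjusted p = 0.0419, or 0.437 without the 7 libraries). After correction for length, the adjusted p (limma) was 0.0938 for Mt3 and 0.134 for Slc39a14 at day 7, and 0.405 for Mtf1 relative to saline.

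Of 13 tested p53 targets other than Cdkn1a, 5 rose and none fell at day 14 relative to day 1 (median 0.09). Btg2, an antiproliferative gene, rose by 0.39 ± 0.07 on the log2 scale (limma adjusted p = 0.000334) and Gadd45a, a growth arrest gene, by 0.38 ± 0.08 (limma adjusted p = 0.00175). Zmat3, a p53-induced RNA-binding protein gene, was not called at day 14 (0.10 ± 0.04, limma adjusted p = 0.0670). Of 16 tested genes of fasting and lipid oxidation, none rose and 4 fell at day 14 relative to day 1 (median -0.06), while Pdk4 rose. At day 7, Foxo3, a transcription factor, and Pdk3, a relative of Pdk4, fell relative to day 1 (-0.39 ± 0.07, limma adjusted p = 6.34e-05, and -0.18 ± 0.05, limma adjusted p = 0.005).

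Over the 13 group means of log2(FPKM + 1), some of the 10 genes ran together. Of 45 pairs, Fkbp5 with Errfi1 (Pearson r = 0.859), Mt1 with Mt2 (0.833) and Tsc22d3 with Sgk1 (0.826) were highest, while Mt1 with Fkbp5 gave 0.092 and Pdk4 with Klf9 -0.059. Among 11722 other genes, those most like Fkbp5 were Nmt1 (r = 0.932), Sdf4 (0.917) and Nap1l2 (0.905). Those most like Mt1 were the mitochondrial transfer RNA gene TrnF (0.903), Mt3 (0.892) and the pseudogene Gapdh-ps16 (0.863), and those most like Pdk4 were Tinagl1 (0.932), Dnaja2 (0.886) and Kcnn2 (0.882). These correlations describe 13 means that share libraries and scaling within a group, and the genes named are the highest of many.

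Cell type markers also differed between day 14 and day 1. All 5 tested blood markers (haemoglobin genes among them) fell, at a median log2 difference of -1.29, with a summed level of 161 to 517 FPKM at day 14, against 387 to 1113 FPKM at day 1 and 795 to 926 FPKM in saline. Of 12 meningeal fibroblast markers 8 fell (54.7 to 66.6 FPKM in sum at day 14, against 68.6 to 90.9 FPKM at day 1 and 79.5 to 93.9 FPKM in saline). Of 10 oligodendrocyte markers 6 fell (2540 to 3119 FPKM in sum, against 2382 to 5074 FPKM at day 1 and 3334 to 3529 FPKM in saline). Astrocyte, microglial and endothelial markers had 2, 3 and 3 falls and no rise of 10 each, and neuronal markers 1 rise and no fall of 10. At day 7 relative to day 1, 12 of 12 meningeal fibroblast markers and 8 of 11 tested choroid plexus markers fell. In that comparison 25% of all genes were called in either direction (3675 of 14701). Of these 3675 genes, 1495 were higher (10.2% of all genes) and the rest were lower. All 7 genes that rose at day 14 did so beside these falls, and the part of cell composition in their differences was not tested. Neuronal, astrocyte and oligodendrocyte markers were present in every group, and none of the 4 tested pituitary genes was called at day 3, 7 or 14 relative to day 1. The 8 pituitary genes summed to 1.08 to 8.57 FPKM in saline, 1.22 to 50.4 FPKM at day 1, 1.1 to 3.33 FPKM at day 3, 2.35 to 63.6 FPKM at day 7 and 1.15 to 24.2 FPKM at day 14. Fshb and Pou1f1 were at 0 in every saline library.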

How the data were processed

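Brain RNA purified with Trizol was selected on poly(dT) beads and reverse transcribed (SmartScribe), per the labels' protocols. HISAT2 was the aligner, per the submitters' processing notes. Those notes list a human build, GRCh38, although the samples are mouse, and no coordinates were taken from the table. The authors deposited FPKM values in 1 table of 47561 genes by 39 libraries. The program that made them is not given in the sources used here. Low values gave no whole reads back (0.453% at the commonest ratio), so depth and its precision are unknown. FPKM depends on the assumed transcript length and on what other genes take up.

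Genes with 1 FPKM in 3 libraries (14701) were fitted as log2(FPKM + 1), 13 group means together, by limma 3.58.1 under R 4.3.3 (eBayes with a trend). Benjamini-Hochberg adjustment ran over all of them, with a threshold of 0.05. F-tests covered differences among the 4 days and the interaction of dose with day. The code was tested on simulated data. The members, lists and tests were chosen with earlier results of these data known. Named genes were the 10 members, 6 others always (Nr3c1, Nr3c2, Hsd11b1, Per1, Dusp1, Mt3), up to 3 of smallest adjusted p from each of 5 lists, and the 3 genes most correlated with each of Fkbp5, Mt1 and Pdk4 among those of mean FPKM 2 or more in a group; 1 gene that this rule names is not reported here. Other settings tried were another pseudocount (0.1), all genes unfiltered, scaling by median ratios, a replicate block, correction for transcript length (a lowess trend per library, span 0.5, on the longest GENCODE transcript of a gene, found for 95.94% of genes), a fit of only the groups compared, and leaving out 2, 7 or single libraries. Promoters came from RefSeq. Motifs and figures used Python 3.11.15, numpy 2.4.6, pandas 2.3.3 and matplotlib 3.10.9.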

Additional observations from a re-analysis of the deposited data

Results flagged for a closer look

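The level of 9 of the 10 genes differed among the 4 days in soman brains. The F-test among days (limma, Benjamini-Hochberg) gave an adjusted p = 0.000464 for Fkbp5, 0.00132 for Tsc22d3, 0.0197 for Sgk1, 8.27e-07 for Errfi1, 0.000252 for Pdk4, 0.00012 for Zbtb16, 9.59e-06 for Cdkn1a, 0.000693 for Mt1 and 0.0197 for Mt2. Sgk1 and Mt2 were lost without the 7 libraries between others (adjusted p = 0.129 and 0.117). Since 49.5% of all tested genes passed the same test, a difference among days was common in these brains. By its mean over doses, the highest day was day 14 for Fkbp5, Errfi1, Pdk4, Zbtb16 and Cdkn1a, day 7 for Mt1 and Mt2, and day 3 for Tsc22d3 and Sgk1. Some of these days were not told apart from another. Day 14 against day 3 was not called for Tsc22d3 or Sgk1 (limma adjusted p = 0.770 and 0.899). Day 14 against day 7 was not called for Pdk4, Cdkn1a, Mt1 or Mt2 (limma adjusted p = 0.169, 0.774, 0.0729 and 0.661).

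The dose differences of Zbtb16 differed between days (interaction adjusted p = 0.0423, limma), with 1/2 LD50 lowest at day 1 and 1/5 LD50 highest at day 14. At day 7, every Sgk1 library of 1/2 LD50 lay above saline (mean 21.9 FPKM) and every one of 1/10 LD50 below it (mean 14.8 FPKM). That pair of doses was not tested on its own, and the interaction of dose and day was not called for Sgk1 (limma adjusted p = 0.280).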

How the results depend on the processing

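Of 51 calls of the 10 genes over the 25 comparisons, 50 were kept with a pseudocount of 0.1, 46 with median-ratio scaling, 36 without a filter, 41 after correction for length, 46 without the 2 libraries of high mitochondrial share and 25 without the 7 libraries between others. None turned its direction. The 7 calls of day 14 against day 1 ranged between 6 and 8 with 1 library left out, and the 9 among days stayed at 9 with 1 library left out but were 7 without a filter and 7 without the 7 libraries, both times without Sgk1 and Mt2. Against saline at day 7, the 2 calls at 1/10 LD50 became 1 with scaling and 0 without the 2 libraries, without the 7 or with only the groups compared (0 to 4 with 1 library left out). The 3 at 1/5 LD50 became 0 after length correction or without the 7 (0 to 3), and the 2 at 1/2 LD50 became 1 without a filter or with scaling and 0 after length correction or without the 7 (0 to 1). Comparisons with no call gained 1 at 1/10 LD50 day 1 (without the 2; only groups compared), 1/2 LD50 day 3 (scaling; length; without the 2; only groups compared; 0 to 1 with 1 library out), 1/10 LD50 day 14 (only groups compared) and 1/5 LD50 day 14 (without the 2; only groups compared). With 1 library out, all soman against saline gave 0 to 1 and 1/2 against 1/10 LD50 gave 0 to 2. Day 3 against day 1 gave 1 after length correction or without the 7 (2 to 4 with 1 library out), and day 7 against day 1 gave 2 without the 7 (3 to 4). Day 14 against day 1 at 1/10 LD50 gave 1 without a filter or the 7 (1 to 3). At 1/5 LD50 it gave 1 with the other pseudocount, scaling, the block or length correction and 0 without a filter or the 7 (0 with any 1 library out), and at 1/2 LD50 it gave 1 without the 7 (3 to 4). Day 7 against day 3 gave 1 without the 2 or the 7 (2 to 4), day 14 against day 7 gave 3 to 6 and day 14 against day 3 gave 4 to 6. The interaction gave 0 without a filter, with scaling, after length correction, without the 2 or without the 7 (0 to 1). Replicate numbers did not pair the libraries (median correlation 0.005, lowest -0.326). With the replicate block, 7 members were called at day 14 against day 1, and 49 of the 51 calls were kept. Zmat3 was lower at day 3 than at day 1 (log2 difference -0.12 ± 0.04, limma adjusted p = 0.0156). After length correction that difference turned to 0.00278 (adjusted p = 0.974). Over all genes, 2197 were called at day 14 against day 1, against 685 without the 7, and 234 in the interaction, against 59 without a filter, 43 without the 2 and 1 without the 7. At day 3 against day 1, 3455 genes were called, against 1415 after length correction and 1755 without the 7, and at day 7 against day 1, 3675, against 1933 without the 7. Except where a setting itself leaves out libraries, the cause was not tested. With no depth, low genes such as Pdk4 and Zbtb16 carry an unknown counting error.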
